A study of Mus musculus with 4 samples.

Results

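The genes described here are those whose RNA level was lower after IL-1α in macrophages that lack MK2. The members were chosen by their ratio in the deposited table: a mean of at least 50 normalized counts over the 4 libraries, and a ratio of IL-1α-treated to untreated cells of 0.67 or less in the MK2-deficient line, with 1 added to each value. Fos, pseudogene names and names with certain starts, such as Gm, Rpl, Slc, Ifi, Egr, Klf and Dusp, were left out by the rule. This removed 30 of 166 genes and left 136 of the 55356 genes in the table. Of the 55356 genes, 10585 had a mean of at least 50, and these form the background throughout. The background keeps the names that the rule left out of the members.

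The cells were immortalized bone marrow-derived macrophages of MK2-knockout mice, transduced with the empty vector pMMP-IRES-GFP (+GFP) or with the same vector carrying MK2 (+MK2), and sorted on GFP. Both lines therefore stem from knockout cells, and the labels call the +GFP line MK2 knockout and the +MK2 line wild type. Each line was left untreated (UT) or given IL-1α at 5 ng/ml for 1 h, with 1 RNA-seq library per condition. There are no replicates, so the values carry no SD and no test of a condition, and a difference between the lines cannot be told apart from other differences between 1 transduced line and another. Intervals given below are 95% Clopper-Pearson intervals of the counts of a pair of libraries, with 1 normalized count read as 1 read. They cover counting error only, and a change is called beyond counting error where its interval leaves out a log2 ratio of 0.

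The label check held for the line of all 4 libraries, and the treatment of a library was not checked. Mapkapk2, which encodes MK2, had 561 normalized counts in +GFP cells before and 1585 after IL-1α, against 38357 and 38141 in the +MK2 line. The summed level of 10 macrophage markers ranged from 116901 to 131599, but single markers differed between the lines. Mrc1 had 273 and 282 normalized counts in +GFP cells against 1499 and 1488 in +MK2 cells. Cd14 was higher in +GFP cells, with 3652 and 8072 against 1962 and 2250. Lyz2 was close, with 59858 and 64591 against 60184 and 62671. The summed markers of fibroblasts, T cells, B cells, neutrophils and epithelial cells stayed at 14 or less in each library. The summed dendritic cell markers ranged from 21 to 116. The normalized values summed to between 24891906 and 25733071 per library, and raw depth is unknown because the values were scaled by the authors.

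IL-1α binds the IL-1 receptor and signals through MyD88 and TAK1 to the NF-κB, JNK and p38 pathways, which in macrophages switch on cytokine and feedback genes within the first hour. MK2 is a kinase activated by p38 that phosphorylates RNA-binding proteins of the tristetraprolin family and so controls the stability and translation of inflammatory mRNAs. Genes whose mRNA drops early after a stimulus are commonly those with short-lived transcripts, among them transcription factors and receptors with their regulators.

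The log2 ratio of the 136 members in +GFP cells ranged from -2.39 to -0.58, with a median of -0.75, or a ratio of 0.595. These values chose the members and are given as a description. Among all 10585 genes, 1.57% met the ratio of 0.67 or less in this line. Just inside the limit, Ogdhl went from 2 to 1 normalized counts and Mapk11 from 5 to 3. The first 3 outside were Lrguk with 75 and 50, Fam78a with 1067 and 718, and Car9 with 100 and 67. The change went beyond counting error in 112 of the 136 members, or 82.4%, beside 13.1% of all genes. The same 2 libraries chose the members, so this count and those for the groups below are a description, and nothing is read from them. The other 24 are Fbxo32, Cdyl2 and members with under 50 normalized counts in untreated +GFP cells. Members under 50 numbered 24, of which 7 were at 3 or less, and among them only in Gpr157 and Hmcn2 did the difference exceed counting error.

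The +MK2 line did not enter the ratio that chose the members, but it entered the mean of at least 50. The 24 members under 50 normalized counts in untreated +GFP cells passed that mean through their +MK2 values, so the reading below is only partly independent of the choice. Of the 136 members, 4 were at 0.67 or less after IL-1α in +MK2 cells, or 2.94%, against 0.812% of all 10585 genes. In the opposite direction 9 members were at the inverse ratio of 1.49 or more, or 6.62%, against 0.775% of all genes. The median log2 ratio of the members was -0.01, with quartiles of -0.18 and 0.14, beside a median of 0.01 for all genes. Thus 69 members, or 50.7%, were lower, 66 higher and 1 equal after IL-1α in the +MK2 line, beside 44.7% of all genes that were lower. Beyond counting error, 17 members, or 12.5%, were lower and 13, or 9.56%, were higher, beside 8.77% and 12.7% of all genes. These shares lay near the background, and 106 members stayed within counting error. The +MK2 line also moved less over all 10585 genes. At 1.49 or more after IL-1α were 2.91% of them in +GFP cells and 0.775% in +MK2 cells, and at 0.67 or less 1.57% and 0.812%. A small change in +MK2 cells is therefore not particular to the members.

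Members were less abundant than the average gene, with a median of 127.5 normalized counts in untreated +GFP cells against 1010 for all genes, and low counts scatter more. Among genes with a mean under 500, which hold 110 members and 3224 genes in all, 3.64% of members and 2.48% of all genes were at 0.67 or less in the +MK2 line. At 1.49 or more were 8.18% of these members and 2.14% of all such genes. The share of lower members thus lay near that of genes with similar counts. Of the 9 higher members, 6 were higher beyond counting error and 3 (Zfp618, Themis2 and Pik3ip1) were not, and Kif5a had 2 normalized counts in untreated +MK2 cells. With a minimum mean of 200, 0 of 47 members were at 1.49 or more, so nothing is read from the share of higher members. The 500 limit was chosen after the values were seen.

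**Figure D1:**
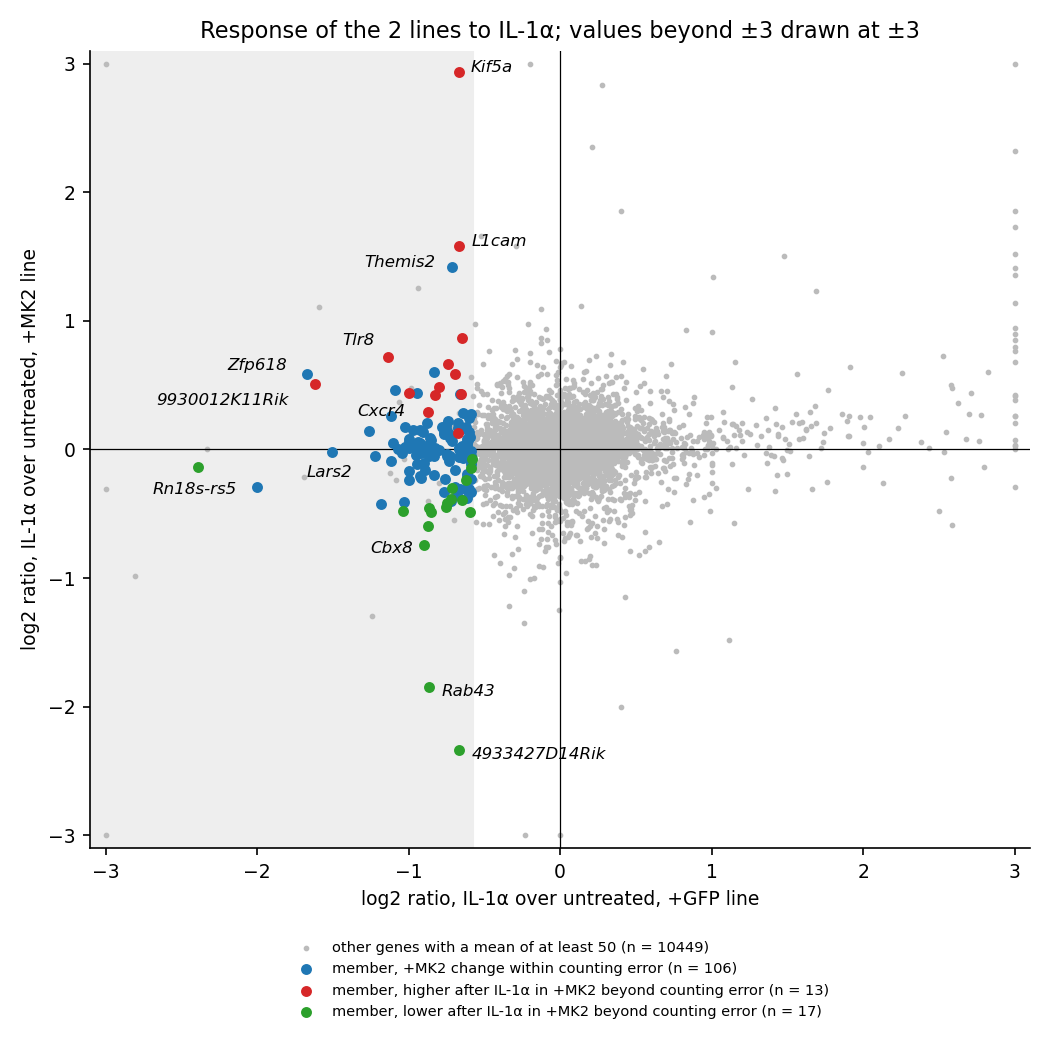
Each point is a gene with a mean of at least 50, placed by its log2 ratio of IL-1α-treated over untreated cells in the +GFP line (horizontal) and the +MK2 line (vertical), 1 library per condition. Shading marks the ratio of 0.67 or less that chose the members (grey points there have names the rule left out); the 106 blue members cluster around 0 on the vertical axis, with 13 above and 17 below beyond counting error.

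**Figure D2:**
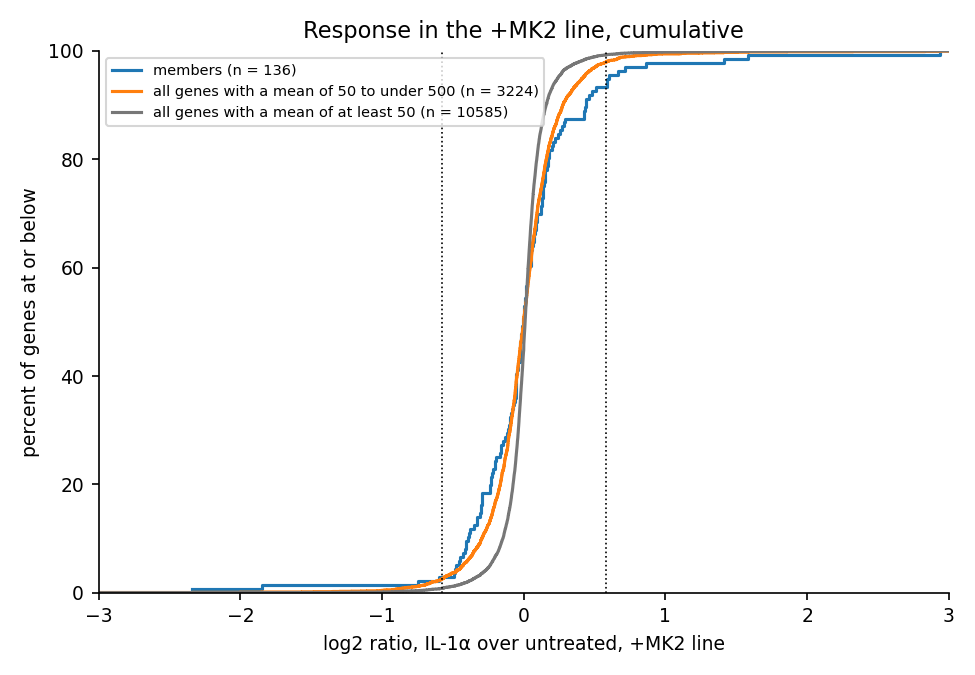
The curves give the percent of genes at or below each log2 ratio of IL-1α-treated over untreated +MK2 cells, for the 136 members, the 3224 genes with a mean of 50 to under 500 and all 10585 genes; dotted lines mark ratios of 0.67 and 1.49. All 3 curves pass their midpoint close to 0, and 9 members lie at or right of the upper line and 4 at or left of the lower one.

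There were 4 members at 0.67 or less in both lines. The gene 4933427D14Rik went from 45 to 28 normalized counts in +GFP cells and from 328 to 64 in +MK2 cells, a log2 ratio of -2.34 in the latter (95% counting interval -2.77 to -1.97). Rab43, a small GTPase of membrane traffic, was at 19 and 10 in +GFP cells and at 244 and 67 in +MK2 cells (log2 ratio in +MK2 -1.85, -2.28 to -1.47). For both genes the +GFP pair lay within counting error. Cbx8, a chromodomain subunit of Polycomb repressive complex 1, was at 146 and 78 in +GFP cells and at 153 and 91 in +MK2 cells (log2 ratios of -0.90 and -0.74). Mettl21a, a protein lysine methyltransferase, was at 345 and 188 in +GFP cells and at 341 and 225 in +MK2 cells (log2 ratios of -0.87 and -0.60). Cbx8 and Mettl21a were the only members lower by this ratio in both lines with both pairs beyond counting error. With the same names left out, 49 genes were at 0.67 or less in the +MK2 line, and these 4 are 8.16% of them. They are 2.94% of the members, beside 0.812% of all genes at that ratio in +MK2 cells. With no names left out, 7 of 86 genes at 0.67 or less in +MK2 cells also met it in +GFP cells. That is 8.14%, beside 1.57% of all 10585 genes. From so few genes, nothing is read from these shares.

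The G protein-coupled receptors and their regulator made up 8 members, and in 7 of them the difference in +GFP cells exceeded counting error. Rgs2, a GTPase-activating protein that ends Gq signaling, was the most abundant of them, with 3713 normalized counts in untreated +GFP cells and 1824 after IL-1α, and with 4903 and 4977 in the +MK2 line. The treated +GFP library thus held the lowest value of the 4, and both +MK2 libraries were higher than either +GFP library. Its log2 ratio was -1.03 (-1.11 to -0.94) in +GFP and 0.02 (-0.04 to 0.08) in +MK2 cells. The relatives Rgs1, Rgs10, Rgs14, Rgs18 and Rgs19, looked up after the members were known like all relatives named here, were above 0.67 in both lines.

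S1pr2, a receptor for sphingosine 1-phosphate, had 1236 and 742 normalized counts in +GFP cells and 1016 and 952 in +MK2 cells. Lpar6, a receptor for lysophosphatidic acid, had 704 and 378 against 656 and 609. Cnr2, the CB2 cannabinoid receptor, had 284 and 153 against 224 and 223. For these 3 lipid receptors the untreated +GFP value was the highest of the 4 and the treated +GFP value the lowest, and the change in +MK2 cells stayed within counting error. Cxcr4, the receptor of the chemokine CXCL12, had 451 and 246 in +GFP cells and 388 and 476 in +MK2 cells, a log2 ratio of -0.87 (-1.10 to -0.65) in the former and 0.29 (0.10 to 0.49) in the latter. Cxcr4 therefore moved in opposite directions in the lines. Gpr146, an orphan receptor, was lower after IL-1α in both, with 240 and 145 in +GFP cells and 354 and 271 in +MK2 cells, where its log2 ratio was -0.38 (-0.62 to -0.15). Gpr157 and Prokr1 had at most 38 normalized counts in +GFP cells and between 111 and 149 in +MK2 cells. Among the 16 expressed receptors of a list of chemotactic and lipid receptors, 3 were members and 5 were at 1.49 or more in +GFP cells, and none met either ratio in +MK2 cells. Over all 10585 genes, 2.91% were at 1.49 or more in +GFP cells. In +MK2 cells 0.812% were at 0.67 or less and 0.775% at 1.49 or more.

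The promoter windows of 4 of these genes are shown because the members differ in the motifs they hold there. Each runs from 250 bases before to 50 after the annotated start (RefSeq, GRCm38.p6), 5′ to 3′ on the strand of the gene, and capitals mark letters of the motifs listed further below, on either strand. The Rgs2 window (chr1:144004100-144004399, minus strand) holds 4 GC boxes and 1 CCAAT box, and that of Cxcr4 (chr1:128592250-128592549, minus strand) 3 GC boxes and a TATA box matched on both strands. The S1pr2 window (chr9:20976744-20977043, minus strand) holds 1 cyclic AMP response element and 1 GC box. The Gpr146 window (chr5:139389654-139389953, plus strand), 1 of 3 for this gene, holds 1 AP-1 site and 1 FoxO site. It was picked from the 3 because it holds an AP-1 site. An E-box, a CCAAT box and a GC box were found only in the windows of Gpr146 that are not shown.
Rgs2: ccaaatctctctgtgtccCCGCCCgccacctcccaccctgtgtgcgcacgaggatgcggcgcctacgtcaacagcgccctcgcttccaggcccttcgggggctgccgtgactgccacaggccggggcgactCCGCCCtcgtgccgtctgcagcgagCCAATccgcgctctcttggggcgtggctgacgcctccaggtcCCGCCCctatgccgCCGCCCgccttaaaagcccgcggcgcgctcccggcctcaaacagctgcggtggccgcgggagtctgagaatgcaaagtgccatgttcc
Cxcr4: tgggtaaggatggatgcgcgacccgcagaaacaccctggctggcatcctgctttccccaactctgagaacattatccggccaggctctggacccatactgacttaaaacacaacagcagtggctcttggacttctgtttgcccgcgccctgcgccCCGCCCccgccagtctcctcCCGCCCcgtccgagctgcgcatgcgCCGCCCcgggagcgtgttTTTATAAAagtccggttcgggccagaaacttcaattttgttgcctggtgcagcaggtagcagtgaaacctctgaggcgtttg
S1pr2: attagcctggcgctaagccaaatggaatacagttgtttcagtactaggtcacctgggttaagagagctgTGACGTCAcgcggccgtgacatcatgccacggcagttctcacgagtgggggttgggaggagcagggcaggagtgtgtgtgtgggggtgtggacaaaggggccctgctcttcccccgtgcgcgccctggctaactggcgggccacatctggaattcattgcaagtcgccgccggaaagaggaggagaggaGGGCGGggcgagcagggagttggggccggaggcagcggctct
Gpr146: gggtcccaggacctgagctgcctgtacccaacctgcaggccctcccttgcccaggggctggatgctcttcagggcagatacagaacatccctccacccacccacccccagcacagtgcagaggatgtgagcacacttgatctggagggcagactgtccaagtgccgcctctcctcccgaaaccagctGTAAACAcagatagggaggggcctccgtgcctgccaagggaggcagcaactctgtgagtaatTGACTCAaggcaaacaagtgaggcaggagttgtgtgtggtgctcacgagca

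Another 10 members encode immune receptors and other receptors of the cell surface or endosome, and in 7 the difference in +GFP cells exceeded counting error. Tlr8, an endosomal Toll-like receptor for single-stranded RNA, had 109 and 49 normalized counts in +GFP cells and 66 and 109 in +MK2 cells. Its log2 ratio was -1.14 (-1.67 to -0.65) in +GFP and 0.72 (0.27 to 1.19) in +MK2 cells, so the value of untreated +GFP cells equalled that of treated +MK2 cells. The other endosomal Toll-like receptors stayed above 0.67 in both lines: Tlr7 had 5004 and 4437 in +GFP cells and 4514 and 4567 in +MK2 cells, and Tlr9 had 195 and 225 against 175 and 191. Cd300lb, an activating receptor of the CD300 family that signals through DAP12, had 2096 and 1085 against 1554 and 1562, a log2 ratio of -0.95 (-1.06 to -0.84) and of 0.01 (-0.09 to 0.11). Of the CD300 relatives looked at beside it, Cd300a, Cd300ld and Cd300lf remained above 0.67 in both lines, and Cd300lg, which was a member, had only 14 and 6 in +GFP cells against 137 and 142.

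Clec4a2, an inhibitory C-type lectin receptor of myeloid cells, had 101 and 51 normalized counts in +GFP cells and 135 and 150 in +MK2 cells. Its neighbour in the family, Clec4a3, had 207 and 210 against 292 and 327. Fcgrt, the neonatal Fc receptor that recycles IgG, had 126 and 55 against 42 and 31, so here both +MK2 libraries were lower than either +GFP library. Sirpb1c, a receptor of the signal regulatory protein family, had 72 and 41 against 62 and 87. L1cam, an adhesion molecule, had 134 and 84 against 13 and 41, a log2 ratio of 1.58 (0.73 to 2.68) in +MK2 cells. Sema4c, a transmembrane semaphorin, had 129 and 71 against 341 and 359. Eda2r and Epha2 were at 37 or less in +GFP cells and at 147 or more in +MK2 cells.

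The windows of Tlr8 and Clec4a2 are printed for contrast with those above, since each has a single CpG. The Tlr8 window (chrX:167264280-167264579, minus strand) holds a TATA box matched on both strands and 1 CCAAT box. The Clec4a2 window (chr6:123122440-123122739, plus strand) holds 1 TATA box and 1 AP-1 site, which begins at base 282 of the window, past the start.
Tlr8: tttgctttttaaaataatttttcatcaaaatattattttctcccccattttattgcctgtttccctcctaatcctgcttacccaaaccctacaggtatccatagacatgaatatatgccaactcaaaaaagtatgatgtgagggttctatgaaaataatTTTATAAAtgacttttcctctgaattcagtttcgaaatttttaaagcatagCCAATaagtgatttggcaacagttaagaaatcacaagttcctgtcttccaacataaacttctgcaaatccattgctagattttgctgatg
Clec4a2: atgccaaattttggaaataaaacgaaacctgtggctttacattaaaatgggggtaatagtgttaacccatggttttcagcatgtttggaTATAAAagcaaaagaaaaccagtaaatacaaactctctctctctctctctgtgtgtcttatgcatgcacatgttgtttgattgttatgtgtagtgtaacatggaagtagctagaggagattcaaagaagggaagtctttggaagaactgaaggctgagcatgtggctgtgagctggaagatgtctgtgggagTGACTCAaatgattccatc

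**Figure D3:**
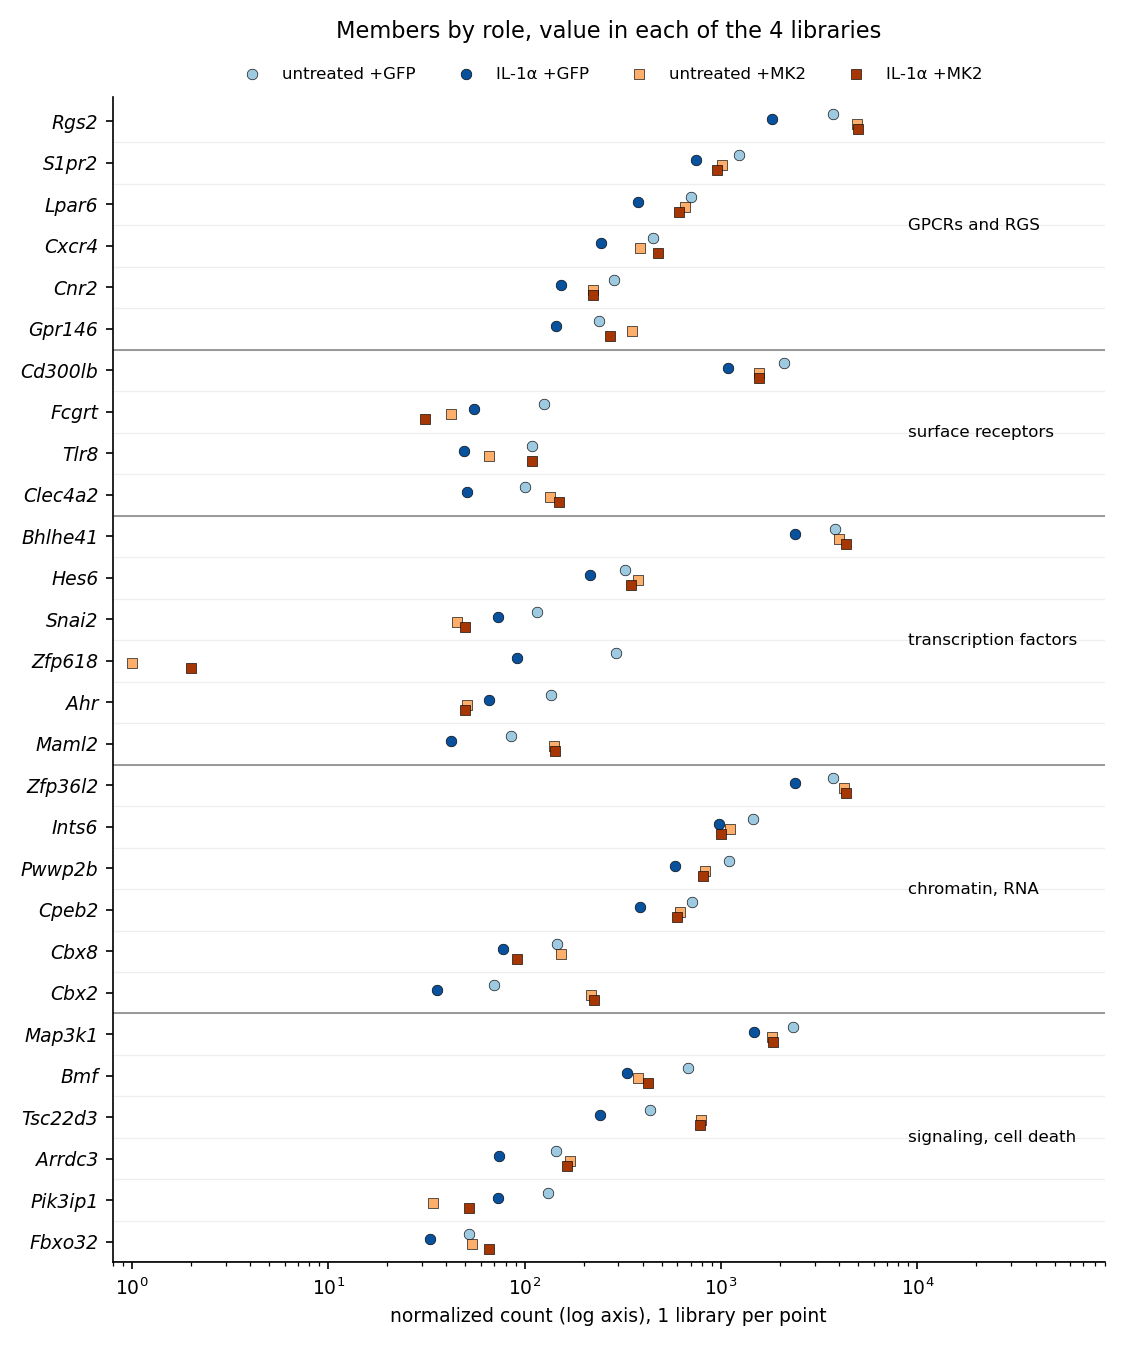
Normalized counts (log axis) of 28 members grouped by role, with 1 point for each of the 4 libraries. In most rows the dark circle (IL-1α-treated +GFP) is the leftmost point and the squares (untreated and treated +MK2) lie close to each other.

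Transcription factors and co-regulators made up 19 members, and all 19 were lower beyond counting error in the +GFP pair that chose them. In +MK2 cells 15 of the 19 stayed within counting error, 2 were lower and 2 higher, with a median log2 ratio of 0.02. Of all genes, 8.77% were lower and 12.7% higher beyond counting error there, with a median of 0.01. The small change in +MK2 cells is therefore not particular to this group. Bhlhe41, a repressor of the circadian clock that also acts in tissue macrophages, had 3810 and 2388 normalized counts in +GFP cells against 3989 and 4355 in +MK2 cells, a log2 ratio of -0.67 (-0.75 to -0.60) and of 0.13 (0.06 to 0.19). Its close relative Bhlhe40 had 2348 and 2251 against 1655 and 1578 and was no member. Bhlhe41 was the only member among 15 expressed clock genes.

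Ahr, the aryl hydrocarbon receptor, had 137 and 66 normalized counts in +GFP cells and 51 and 50 in +MK2 cells. Snai2, a zinc finger repressor, had 116 and 73 against 45 and 50. Both factors were higher in both +GFP libraries than in untreated +MK2 cells. Hes6 and Maml2 are linked to Notch signaling, the former as a member of the Hes repressor family and the latter as a co-activator of Notch. Hes6 had 323 and 215 against 378 and 350, and Maml2 had 85 and 42 against 141 and 142. Maml1 and Maml3 had 834 and 965 and 218 and 221 in +GFP cells. Of 10 expressed Notch pathway genes, 2 were members.

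The zinc finger names hold 12 members of the 333 expressed genes so named, or 3.60%. In +GFP cells 1.57% of all genes met the ratio that chose the members, and 4.28% of genes with a mean under 500 did. The +GFP contrast chose the members, so nothing is read from the share of zinc finger names. The 12 include Zfp36l2, an RNA-binding protein described below. Zfp618 had 292 and 91 normalized counts in +GFP cells and 1 and 2 in +MK2 cells, which is too few for a ratio there. Its log2 ratio of -1.67 (-2.04 to -1.34) in +GFP cells was the third lowest of all members. Zfp395 moved in opposite directions, with 85 and 54 against 225 and 411, a log2 ratio of -0.64 (-1.17 to -0.15) and of 0.87 (0.63 to 1.11). Zfp268 was lower in both lines, with 744 and 454 against 370 and 301. Zbtb34 had 763 and 496 against 1153 and 1167, and Zfp169 had 252 and 126 against 154 and 160. The other 6, Zfp2, Zfp566, Zfp61, Zfp763, Zfp85 and Zfp973, had between 67 and 237 normalized counts in untreated +GFP cells, between 41 and 125 after IL-1α, and remained within counting error in the +MK2 line.

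Chromatin proteins made up 5 members. Cbx2, like Cbx8 a chromodomain subunit of Polycomb repressive complex 1, had 70 and 36 normalized counts in +GFP cells and 217 and 226 in +MK2 cells. Cbx2 and Cbx8 lie 5.04 kb apart on chromosome 11 and on opposite strands. Cbx2 was thus lower after IL-1α in the +GFP line alone by the ratio of 0.67, whereas Cbx8 met that ratio in both lines, and whether the genes differ beyond error was not tested. Cbx7, another of the family, had 176 and 209 against 143 and 149. Pwwp2b, a chromatin reader linked to the NuRD complex, had 1103 and 583 against 828 and 812, a log2 ratio of -0.92 (-1.07 to -0.77) and of -0.03 (-0.17 to 0.11). Ss18l1, a subunit of SWI/SNF-type remodelers, had 134 and 87 against 142 and 150, and Cdyl2, a chromodomain protein, had 59 and 39 against 136 and 135. No member was among the 28 expressed histone methylation and demethylation enzymes. Over all genes 1.57% met the ratio, so nothing is read from the lack of members in a list this short.

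Proteins that bind or process RNA made up 4 members. Zfp36l2, a relative of tristetraprolin that promotes decay of mRNAs with AU-rich elements, had 3729 and 2383 normalized counts in +GFP cells and 4238 and 4321 in +MK2 cells. Its log2 ratio was -0.65 (-0.72 to -0.57) and 0.03 (-0.03 to 0.09). Zfp36, which encodes tristetraprolin itself, was higher after IL-1α in +GFP cells, with 641 and 2569, and nearly level in +MK2 cells, with 788 and 814. Zfp36l2 and Zfp36 thus had opposite directions in the +GFP line, and the third member of the family, Zfp36l1, had at most 4 in any library. Cpeb2, which binds the cytoplasmic polyadenylation element, had 708 and 388 against 620 and 597, while Cpeb4 had 2383 and 3071 against 2782 and 3024. Ints6, a subunit of the Integrator complex, had 1461 and 973 against 1111 and 1004, so the treated values of the lines were close and the untreated +GFP value stood above the rest. Igf2bp3, an mRNA-binding protein, had 2 and 1 in +GFP cells against 1559 and 1461.

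Signaling and cell death proteins made up 21 members. Map3k1, a kinase upstream of JNK and ERK, had 2332 and 1469 normalized counts in +GFP cells and 1828 and 1846 in +MK2 cells, a log2 ratio of -0.67 (-0.76 to -0.57) and of 0.01 (-0.08 to 0.11). Map3k2 and Map3k3 had 1454 and 1576 and 1613 and 1629 in +GFP cells. Bmf, a pro-apoptotic BH3-only protein, had 681 and 334 against 377 and 425. Bcl2l11, the BH3-only gene encoding Bim, went the other way in +GFP cells, with 1311 and 2579 against 1645 and 1677. Nkiras1, a Ras-like inhibitor of NF-κB signaling, was lower in both lines, with 142 and 84 against 104 and 76, and its +MK2 interval just left out 0 (-0.90 to -0.01). Mapk11, which encodes p38β, had 5 and 3 against 172 and 166, and it entered only through its counts in the +MK2 line. Mapk14, which encodes p38α, had 3545 and 3515 against 3093 and 3031.

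There were 4 members in a list of 18 expressed genes linked to FoxO factors and quiescence, and 2 genes of that list were at 1.49 or more in +GFP cells. Tsc22d3, the glucocorticoid-induced leucine zipper, had 437 and 242 normalized counts in +GFP cells and 787 and 781 in +MK2 cells, a log2 ratio of -0.85 (-1.09 to -0.62) and of -0.01 (-0.16 to 0.13). Arrdc3, an arrestin-like adaptor, had 144 and 74 against 170 and 165. Pik3ip1, a membrane inhibitor of phosphoinositide 3-kinase, had 131 and 73 against 34 and 52, and Fbxo32, a muscle-atrophy ubiquitin ligase subunit, had 52 and 33 against 54 and 66. For Fbxo32 neither pair differed beyond counting error. Of the relatives, Arrdc2 had 360 and 295 and Arrdc4 had 129 and 126 in +GFP cells, and neither was a member.

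Among the further signaling members, Dlg4, a scaffold protein, had 890 and 523 normalized counts in +GFP cells and 520 and 570 in +MK2 cells. Its highest value was in untreated +GFP cells, and the +MK2 pair lay within counting error. Mylip, the ubiquitin ligase that degrades the LDL receptor, had 391 and 252 against 527 and 518, and Inka1, an inhibitor of the kinase PAK4, had 333 and 198 against 448 and 436. Sh2d3c, an adaptor, had 313 and 206 against 377 and 414. Frat2, a GSK3-binding protein, was lower in both lines, with 185 and 122 against 170 and 121 (log2 ratios of -0.60 and -0.49). Dab2ip, Eps8 and Rragd had at most 19 in +GFP cells and at least 264 in +MK2 cells.

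A set of 3 members stands apart in what it measures. Rn18s-rs5, a sequence related to 18S ribosomal RNA, had the lowest ratio of all, with 106016 normalized counts in untreated +GFP cells, 20229 after IL-1α, and 13482 and 12287 in +MK2 cells. It took 0.425% of the untreated +GFP library and between 0.0490% and 0.0786% of the others. Lars2, the mitochondrial leucyl-tRNA synthetase, had a similar order, with 12021 and 4232 against 2798 and 2753, while the cytosolic enzyme gene Lars had 6084 and 6670 against 7036 and 6896. In both members the untreated +GFP library stood apart from the other 3. Ribosomal RNA has many near-identical copies, so the value of Rn18s-rs5 is uncertain. Lars2 moved with it across the 4 libraries, and the part of ribosomal RNA content in the Lars2 values was not tested. The third, mt-Nd3, encodes a subunit of respiratory complex I in the mitochondrial genome and was lower in both lines, with 1572 and 872 against 1876 and 1336 (log2 ratios of -0.85 and -0.49). Among the 15 mitochondrial genes it alone met the ratio in +GFP cells, and the nearest was mt-Nd6 with 3207 and 2367 in +GFP cells.

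The 66 members outside these groups include genes of metabolism, membrane traffic and unknown function, and 53 of them were lower in +GFP cells beyond counting error. The Kelch-domain gene Kbtbd11 had 963 and 544 normalized counts in +GFP cells and 1405 and 1419 in +MK2 cells. Vamp1, a vesicle SNARE, had 769 and 441 against 613 and 611, and Tor4a, a torsin ATPase, had 1010 and 635 against 1379 and 1384. In these 3 the +MK2 libraries differed by less than counting error. Osgin1, an oxidative stress-induced growth inhibitor, had 300 and 146 against 337 and 242, and D2hgdh, which oxidizes D-2-hydroxyglutarate, had 453 and 270 against 550 and 412, so both were lower in both lines. The ubiquitin ligase subunits and relatives Fbxl18, Klhl33 and Rnft2 were at 0.67 or less in +GFP cells, with 957 and 625, 126 and 82, and 67 and 36, and each lay within counting error in +MK2 cells. Together with Fbxo32, these 3 make 4 of 154 expressed genes of their list, or 2.60%. The members Psme2b, 9930111J21Rik2 and Sirpb1c have close relatives in the genome, and their values are uncertain because reads may be shared.

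Further members of this group are those at the extremes of the ratio in either line or with opposite directions in the lines. Chn2, a Rac GTPase-activating protein, had 3 and 0 normalized counts in +GFP cells, both at or under the 3 counts that a count of 0 allows, and 124 and 101 in +MK2 cells. Fam110b and Nckap1 had 11 and 4 and 6 and 2 in +GFP cells and at least 107 in +MK2 cells, and for these low counts the +GFP difference lay within counting error. The antisense transcript 4933431E20Rik had 233 and 107 against 177 and 212, and 9930012K11Rik had 82 and 26 against 72 and 103. Kif5a, a kinesin motor, had 112 and 70 against 2 and 22, the largest log2 ratio of the members in +MK2 cells, at 2.94 with a wide interval of 1.44 to 6.59. Themis2, a signaling adaptor, had 183 and 111 against 2 and 7, within counting error in +MK2 cells. Klhdc1 and the antisense transcript 1700034H15Rik had 141 and 87 against 71 and 107 and 81 and 48 against 59 and 94.

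Comparing the lines at the same time point uses libraries that chose the members, so the counts are a description. In untreated cells 37 members, or 27.2%, were at 0.67 or less of the +MK2 level, beside 7.43% of all genes, and 28, or 20.6%, were at 1.49 or more, beside 5.18%. After IL-1α, 82 members, or 60.3%, were at 0.67 or less, beside 7.91% of all genes, and 10, or 7.35%, were at 1.49 or more, beside 6.54%. The rule favours a high untreated and a low treated +GFP value, and nothing is read from these shares. The treated +GFP library held the lowest of the 4 values in 111 members, or 81.6%, beside 21.5% of all genes, and the untreated +GFP library the highest in 57, or 41.9%, beside 22.7%.

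There were 3 patterns within the 136 genes. They are cut from libraries that chose the members, so their counts are a description and nothing is read from them. In 71 members, among them Cxcr4, S1pr2, Lpar6, Bhlhe41, Zfp36l2, Map3k1 and Rgs2, the untreated levels of the lines were within the ratio of each other, and after IL-1α the +GFP level was at 0.67 or less of the +MK2 level in 44 of them and near it in 27. In 28 members the untreated +GFP level was higher, as in Lars2, Bmf, Ahr, Fcgrt, Pik3ip1 and Dlg4. After IL-1α the lines were near each other in 17 of these 28, +GFP stayed higher in 10 and was lower in 1. In 37 members the untreated +GFP level was already lower, and all 37 were lower after IL-1α too. The rule chose members that were lower in treated +GFP cells, so this outcome was largely set by the choice. These 37 hold the 24 members under 50 normalized counts in untreated +GFP cells. Laptm4b, a lysosomal membrane protein, was the most extreme of those by its +MK2 level, with 5 and 2 in +GFP cells against 1939 and 1974, and Eps8, an actin regulator, had 19 and 12 against 1318 and 1120. The other 13 include Tsc22d3, Cbx2, Sema4c and Zan, the last with 479 and 306 against 1632 and 1605.

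**Figure D4:**
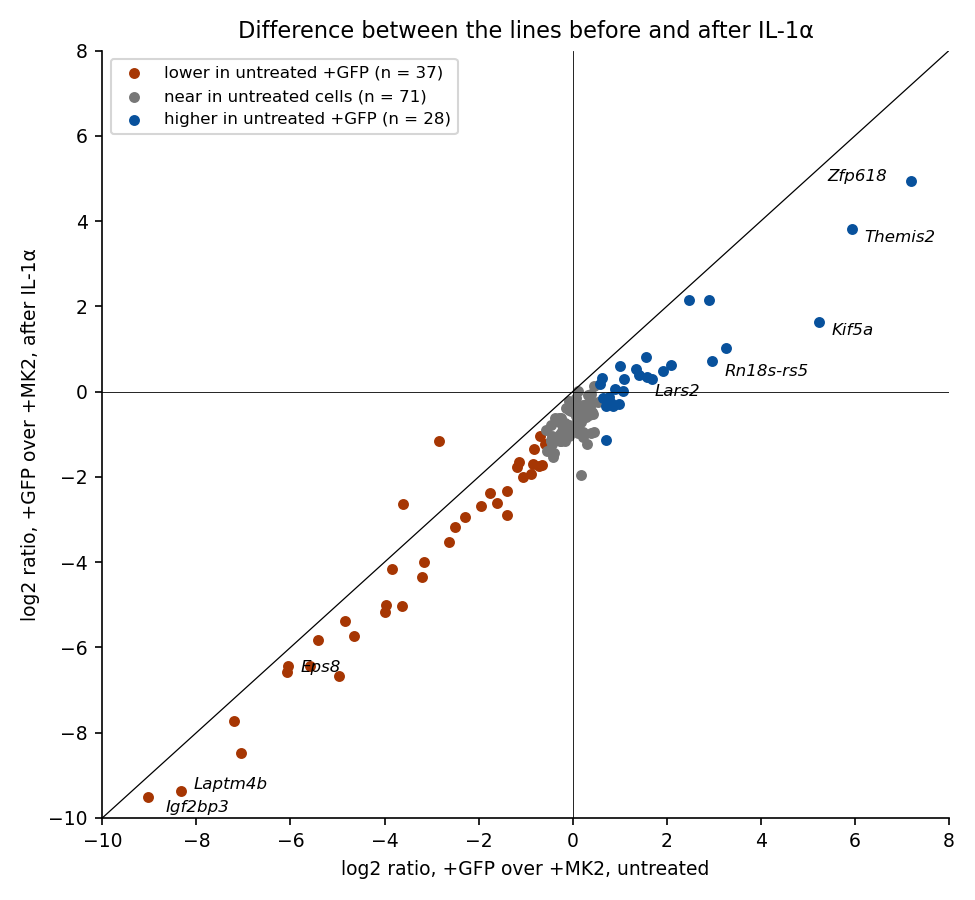
Each point is 1 of the 136 members, placed by its log2 ratio of +GFP over +MK2 in untreated cells (horizontal) and after IL-1α (vertical), 1 library per condition, with the line of equal ratios drawn. The 71 grey members near 0 in untreated cells lie mostly below 0 after IL-1α, and the 37 members at the lower left were lower in +GFP cells at both time points. The rule used both +GFP libraries, so a fall in +GFP cells was set by the choice.

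Without the 24 members under 50 normalized counts in untreated +GFP cells, 112 members remain. Of these, 110 were lower beyond counting error in +GFP cells, or 98.2%, beside 13.1% of all genes. In +MK2 cells Cbx8 and Mettl21a were at 0.67 or less, or 1.79%, beside 0.812% of all genes. At 1.49 or more were 9, or 8.04%, beside 0.775%. The +GFP and +MK2 medians were 144 and 140 normalized counts untreated, and 87.5 and 141 after IL-1α. Over all 136 members the untreated medians were 127.5 and 145. The +GFP values chose the members and this subset, so nothing is read from these medians and shares.

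In gene lists chosen with earlier results of these data known, the members were 22.2% of the FoxO and quiescence genes, 20% of the Notch genes and 18.8% of the chemotactic and lipid receptors, from 4, 2 and 3 genes, beside the 1.57% of all genes. The +GFP contrast chose the members, so nothing is read from these shares. Besides those above, 1 of 8 expressed regulators of G protein signaling (Rgs2) and 1 of 17 expressed genes of mRNA decay (Zfp36l2) were members. No member was among 22 genes of transcription elongation control, 13 Id and TGF-β feedback genes, or 22 G1 cyclin, E2F and Myc genes. Beside 1.57% of all genes, nothing is read from the lack of members in such short lists. In all, 27 members were in a list.

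The gene models of GENCODE M21 (GRCm38) were matched to 135 of the 136 members by gene ID. Of these, 120 were protein-coding and 14, or 10.4%, were long noncoding RNAs, against 7.61% of all matched genes with a mean under 500 and 2.78% of all genes. The noncoding members include 5 antisense transcripts, for which reads of the gene on the other strand cannot be told apart unless the counting used strand. The labels describe stranded libraries, and the strand setting of the counting is not given in the sources used here. Members had a median of 5 exons, against 6 in genes with a mean under 500 and 9 in all genes. Their 3′ untranslated regions had a median length of 1309 bases (quartiles 644 and 2616), against 831 and 988 bases. The pentamer ATTTA, the core of AU-rich elements, occurred 0.961 times per kb of 3′ untranslated region at the median, against 1.08 and 1.27. The longer motif TTATTTATT was in 8 of 117 members with such a region, or 6.84%, among them Zfp36l2, Zbtb34 and Nkiras1, against 7.20% and 7.24%. The members thus had longer 3′ untranslated regions at the median without a higher share of these AU-rich letters. Names that the rule left out of the members, such as Gm, Rpl and Slc, were still in the comparison sets. Their part in these contrasts was not tested. These medians and shares carry no test.

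RefSeq promoter windows were found for 101 members, with 141 windows. Their median GC content was 57.7%, against 59% for genes with a mean under 500 and 61% for all genes, with 14, 18 and 21 CpGs at the median. The AP-1 site (TGACTCA) was in 12 windows of 12 members, or 8.51% of windows, against 4.28% and 3.48%. These 12 are 9930111J21Rik2, Clec4a2, Gpr146, Gtdc1, Hmcn2, Osgin1, Pla2g2e, Sema4c, Shc4, Tor4a, Ttc39aos1 and Xaf1. The FoxO site (GTAAACA) was in 8 windows, or 5.67%, against 2.63% and 2.42%. These are windows of Ajuba, Eda2r, Fcgrt, Frat2, Gpr146, Maml2, Rab43 and Tmem140. None of the members in the list linked to FoxO factors and quiescence is among them. The difference in share was not tested for either site.

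Other motifs were at shares closer to those of all genes or below them. The GC box (GGGCGG) was in 50.4% of member windows against 57.0% and 63.6%, the E-box (CACGTG) in 7.09% against 8.87% and 10.6%, and the NF-κB site in 6.38% against 10.0% and 10.4%. The cyclic AMP response element (TGACGTCA) was in 2.13% against 3.34% and 3.28%. The TATA box (TATAAA) was in 6.38% against 7.32% and 6.68%, the CCAAT box (CCAAT) in 43.3% against 41.6% and 38.6%, the PU.1 site (GAGGAAGT) in 4.26% against 3.61% and 3.35%, and the CArG box in 0.709% against 1.08% and 1.17%. Both strands were searched, and a match describes the letters of a window only.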

How the data were processed

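RNA was measured in 4 libraries, 1 for each of 4 conditions, with groups taken from the labels. The deposited values are whole numbers that behave as a score rather than raw counts: the authors normalized gene counts with DESeq2 and rounded them, and the column names point to salmon. DESeq2 and the build GRCm38 are named in the submitters' processing notes without a version. The methods of the study describe rRNA-depleted single-read libraries and the labels stranded, poly(A)-selected paired-end ones, so the preparation is uncertain, and the strand setting of the counting is not given in the sources used here. The columns of the table map to 4 samples, and no other per-sample column was used. The positions in the table did not match GRCm38 (1457 of 52043 nuclear genes were at the same position), so positions and gene models come from GENCODE M21, matched by gene ID for 94.1% of genes, and promoter windows from RefSeq GRCm38.p6.

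No count model was fitted and the values were not normalized again. Ratios are log2 of the value plus 1 over the value plus 1, which understates changes of low genes. Counting intervals are exact Clopper-Pearson 95% intervals without the added 1. Differences between cultures are not covered, and PCR duplicates would make these intervals too narrow. Choosing and intervals were tested on simulated data with counting error only and the same mean in every library. The genes used there lay well above the minimum mean. Members near that mean, or under 50 normalized counts in untreated +GFP cells, were thus not covered. Motifs were searched by exact letters. Python 3.11.15, numpy, pandas and scipy were used.

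The members and all gene lists were chosen with earlier results of these data known. Genes named are members in the lists, the 10 lowest in +GFP cells and the 10 with the highest mean. The 10 lowest and 10 highest in +MK2 cells and the 3 on either side of the limit are also named. Mapkapk2 is named as the check of the line labels. Further members, grouped by role, and their relatives were chosen after their values were seen. Alternatives were other pseudocounts, scalings, minimum means, the stricter ratio and no names left out, with 2 subsets of members added after seeing the data. Results on some of these genes are not reported here.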

Additional observations from a re-analysis of the deposited data

Results flagged for a closer look

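Members listed here had a lower value after IL-1α in +GFP cells and a higher value in +MK2 cells, both beyond counting error. Each was singled out because the lines moved in opposite directions, with 1 library per condition, and the difference between the lines was not tested. The log2 ratios in +GFP and +MK2 cells were -1.62 and 0.51 for 9930012K11Rik, -1.14 and 0.72 for Tlr8, and -0.87 and 0.29 for Cxcr4. They were -0.80 and 0.48 for Sirpb1c, -0.74 and 0.66 for 1700034H15Rik, -0.69 and 0.58 for Klhdc1, and -0.67 and 0.13 for Bhlhe41. For Kif5a they were -0.67 and 2.94, for L1cam -0.67 and 1.58, for Pla2g2e -0.65 and 0.43, and for Zfp395 -0.64 and 0.87. In untreated +MK2 cells Kif5a had 2 normalized counts and L1cam 13.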

How the results depend on the processing

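With the minimum mean at 20, there were 231 members, of which 10 were at 0.67 or less and 21 at 1.49 or more in +MK2 cells, and the lines differed in 55 members that were higher and 58 that were lower in untreated +GFP cells and in 143 that were lower after IL-1α. With the minimum mean at 200, these values were 47, 1, 0, 9, 10 and 28. With a ratio of 0.5 choosing the members, they were 25, 0, 2, 9, 10 and 17. Both settings change how many genes are counted. A pseudocount of 5 gave 24 members lower in untreated +GFP cells in place of 37. With no names left out, 7 genes were at 0.67 or less in +MK2 cells. Among the members at 50 or more in untreated +GFP cells, a subset chosen after seeing the data, 2 were at 0.67 or less in +MK2 cells and 13 were lower in untreated +GFP cells.

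The other 55 of 77 values stayed within 1.5 times the reported count, or, for the median in +MK2 cells, within -0.04 to 0.03. That range was taken from the ranked ratios of the members, which are not replicates. It is no counting interval and does not cover differences between cultures. Scaling the libraries again by the trimmed mean of M values, to equal totals or to Gapdh gave 145, 171 and 172 members, each holding the 136, and the Gapdh scaling moved the median log2 ratio of all genes between the treated lines from 0.04 to -0.06. No paired analysis was possible because each condition has 1 library. For the same reason no replicate could be left out, and members under 50 normalized counts in a library are limited by counting error.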

Other observations

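Members that lay within 100 kb of each other formed 4 pairs. Cbx2 and Cbx8 were 5.04 kb apart, 9330151L19Rik and Klhdc1 41.3 kb on chromosome 12, and Psme2b and 9930111J21Rik2 69.7 kb on chromosome 11. The fourth pair, 4933427D14Rik and Xaf1, was 94.8 kb apart on chromosome 11. By chromosome, the members ranged from 2 of 500 expressed genes on chromosome 10 to 13 of 502 on chromosome 6, or 0.4% and 2.59%.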
